A study of Mus musculus with 4 samples.

Results

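The genes described here are 10 markers of macrophages and other leukocytes, measured in mouse pancreatic islets cultured with a glucokinase activator or with its vehicle. They were chosen by name (Lyz1, Lyz2, Aif1, Cd14, Cd68, Emr1, Csf1r, Mrc1, Ptprc and Tyrobp) and are read by 13 of the 39429 non-control probes, or 10 of the 26265 gene names, on a 1-colour Agilent mouse array. Csf1r has 3 probes, Emr1 has 2 and each other gene has 1. All 4 samples were total RNA of islets isolated from C57BL/6 mice aged 8 weeks. The islets were kept for 24 h in RPMI1640 with 5.6 mM glucose. In 2 samples the medium held 30 µM GKA, an activator of glucokinase, the enzyme that starts glucose use in beta cells, and in the other two it held DMSO alone. The labels number the samples 1 and 2 in each group and do not say whether they came from separate mice or cultures. The p-values set each difference against the spread of these samples, moderated over all genes, and that spread may be technical.

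Islets hold a small population of resident macrophages, which lie along the vessels among the endocrine cells and depend on the CSF1 receptor for survival. Macrophages take up debris through surface receptors, digest it in lysosomes and pass signals through small adaptor proteins that recruit kinases. The same genes serve as their markers in most tissues, and some of them can also be made by other cells. In whole-islet RNA, a loss of macrophages and less marker RNA in each macrophage cannot be told apart. The islet label was borne out by the hormone genes: all 6 examined (Ins1, Ins2, Gcg, Sst, Ppy and Iapp) were well above background on all 4 arrays.

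The start-site regions of 3 markers that fell are shown because Lyz1 and Lyz2 are neighbouring paralogs that moved together and Aif1 moved by a like amount. Each is the 250 bases before the gene's start from RefSeq (GRCm38.p6), read 5′ to 3′ on the gene's strand, which is the minus strand for all 3 (chr10:117292869-117293118, chr10:117282273-117282522 and chr17:35176053-35176302). Capitals mark GAGGAA or GGAAGT on either strand, letters found in many binding sites of ETS factors such as PU.1, the master factor of macrophages.
Lyz1: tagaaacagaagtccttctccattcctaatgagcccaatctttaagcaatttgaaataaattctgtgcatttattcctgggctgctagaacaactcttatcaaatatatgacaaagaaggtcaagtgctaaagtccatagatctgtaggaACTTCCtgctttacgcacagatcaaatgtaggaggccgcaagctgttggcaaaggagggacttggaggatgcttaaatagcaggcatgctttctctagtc
Lyz2: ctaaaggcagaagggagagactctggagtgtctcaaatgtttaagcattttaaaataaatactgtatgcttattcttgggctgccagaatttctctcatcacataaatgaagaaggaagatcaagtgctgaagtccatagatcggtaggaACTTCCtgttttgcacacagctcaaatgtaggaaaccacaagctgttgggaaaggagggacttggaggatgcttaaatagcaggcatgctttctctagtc
Aif1: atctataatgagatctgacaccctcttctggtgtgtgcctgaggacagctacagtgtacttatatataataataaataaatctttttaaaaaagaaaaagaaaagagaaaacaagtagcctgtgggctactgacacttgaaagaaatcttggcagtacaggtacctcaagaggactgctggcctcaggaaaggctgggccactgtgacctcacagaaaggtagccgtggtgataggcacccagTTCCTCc
Lyz1 and Lyz2 carry GGAAGT on the opposite strand at the same place, 100 bases before the start, and 152 of their 250 positions (60.8%) are the same without gaps. Aif1 carries GAGGAA on the opposite strand 7 bases before the start. Of 32851 RefSeq windows of this length, 23.3% hold GAGGAA and 19.7% hold GGAAGT, so neither is rare. Windows were found for 6 of the 10 markers, 7 windows in all, and 4 of these 6 hold GAGGAA and 4 hold GGAAGT in at least 1 window. Among them, Mrc1, which rose, holds GAGGAA at 3 places and GGAAGT at 1, and Cd68, which was not called, holds GAGGAA at 1. The letters are thus not particular to the markers that fell. A match describes letters and is no evidence of binding.

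The markers did not move as a block. With GKA, Lyz1, Lyz2, Aif1, Emr1 and Ptprc fell, Cd14 and Mrc1 rose, and Cd68, Csf1r and Tyrobp did not pass the test. The changes ran from -0.46 for Ptprc to -2.14 for Lyz2 on the log2 scale, and the rises were 0.96 for Mrc1 and 1.32 for Cd14. A gene was called at an adjusted p under 0.05 in limma, fitted over 17178 genes and adjusted over all of them by Benjamini-Hochberg. All values are log2 of the processed intensity relative to the 75th percentile of the same array, so 0 is the signal at that percentile and a level cannot be set against that of another probe. Of all genes tested, 8.01% were called lower and 9.11% higher, against 5 and 2 of the 10 markers. The markers and the gene lists below were chosen with earlier results of these data known, so such comparisons of shares are a description only. Lyz2 and Mrc1 passed the background filter only through the group where they read higher. With all 4 arrays required above background, 4 of 8 markers were called lower and 1 higher, against 9.67% and 10.6% of all genes. The median change of the 10 markers was -0.58 and that of all genes -0.01. The groups did not overlap for 9 of the 10 markers, 6 lower and 3 higher, where the groups did not overlap for 65.9% of all genes (33.5% lower and 32.4% higher). When dim probes were kept in the fit no marker passed, a count of 0 in limma against 6 lower and 2 higher at an unadjusted p under 0.05.

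**Figure D1:**
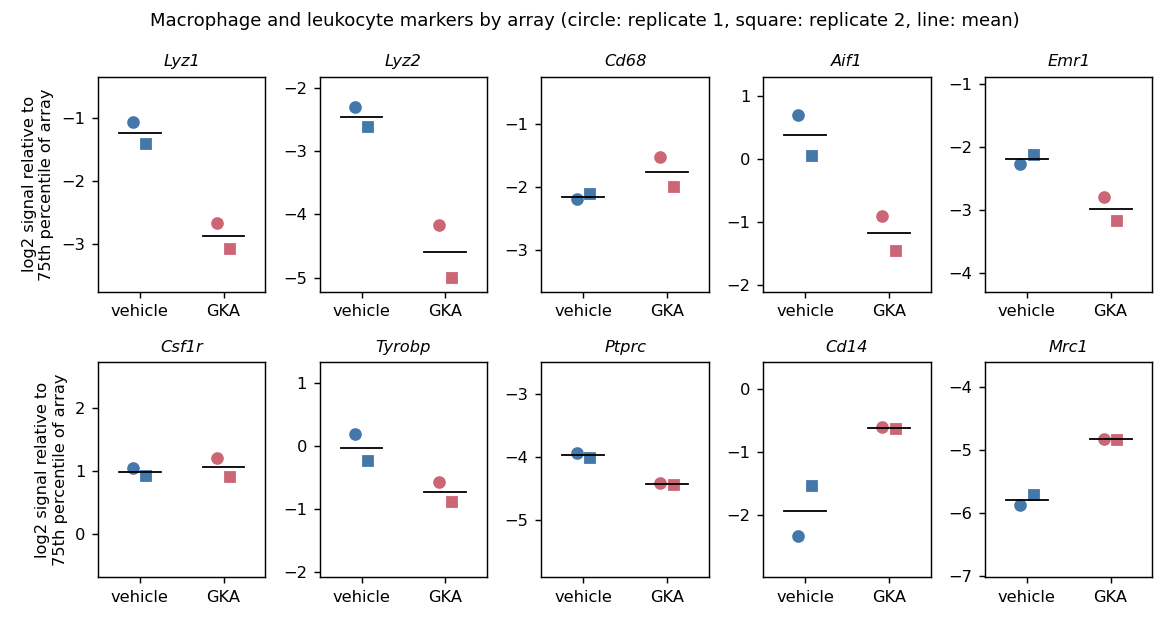
Log2 signal of each marker relative to the 75th percentile of its array (vertical axis) in the vehicle (blue) and GKA (red) arrays, with circles for replicate 1, squares for replicate 2 and a line at the group mean. Every panel spans the same range; Lyz1, Lyz2 and Aif1 lie lower and Cd14 and Mrc1 higher on both GKA arrays, while the groups overlap for Csf1r.

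The lysozyme genes, which encode secreted enzymes that cut bacterial cell walls, both fell. Lyz2, the lysozyme of macrophages and other myeloid cells (probe at chromosome 10, 116719175 to 116719234, build mm9), stood at -2.29 and -2.61 with vehicle and at -4.17 and -5.01 with GKA. Both GKA arrays were lower than both vehicle arrays, and GKA replicate 2 was not well above background. The difference was -2.14 ± 0.30 (SE, n = 2 per group), a 4.40-fold fall (adjusted p = 0.0144 in limma), a size that rests in part on that dim reading. Lyz1, the lysozyme otherwise known from Paneth cells of the gut (chromosome 10, 116724862 to 116724921), stood at -1.07 and -1.41 with vehicle and at -2.66 and -3.08 with GKA. The groups did not overlap, and the difference of -1.63 ± 0.20 was a 3.1-fold fall (adjusted p = 0.0118). Lyz1 and Lyz2 are close paralogs and each has a single probe, so how far each probe also reads the other transcript was not tested. These were the only 2 markers that stayed below the threshold whichever 1 array was left out (highest adjusted p = 0.048 for Lyz1 and 0.035 for Lyz2).

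Cd68, a glycoprotein of the lysosomes of macrophages, read higher on both GKA arrays but did not pass. It stood at -2.19 and -2.11 with vehicle and at -1.52 and -2.0 with GKA, so the groups did not overlap. The difference was 0.39 ± 0.19, with a 95% interval from -0.08 to 0.86 (adjusted p = 0.193), and it lay at -0.15 with spike-in scaling. In a list of 19 lysosomal enzymes and membrane proteins, all measured, Acp5, the tartrate-resistant acid phosphatase of macrophages and osteoclasts, fell by 0.67 (adjusted p = 0.0255). Lgmn, an asparagine-cutting protease, rose by 0.54 (adjusted p = 0.0356), though with spike-in scaling it stood at -0.0017, and 17 genes did not pass. The share called in either direction was 10.5%, against 17.1% of all genes, and the median of the list was -0.14.

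Aif1, which encodes the actin-bundling protein IBA1 of macrophages and microglia (chromosome 17, 35307959 to 35308018), fell by 1.56 ± 0.28 (adjusted p = 0.0259). Its levels were 0.69 and 0.048 with vehicle and -0.91 and -1.46 with GKA. The arrays of each group lay 0.56 to 0.65 apart, less than the gap between the groups. Without GKA replicate 1 its adjusted p was 0.056 and without GKA replicate 2 it was 0.098.

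Of the lineage markers, the F4/80 gene was lower and the CSF1 receptor gene was not. Emr1, now Adgre1, encodes the adhesion receptor F4/80 of mature macrophages. Its brighter probe (chromosome 17, 57622868 to 57622927) stood at -2.26 and -2.13 with vehicle and at -2.80 and -3.18 with GKA, with no overlap. The fall was 0.79 ± 0.16 (adjusted p = 0.0342), and the other Emr1 probe, fitted with all 22139 named probes, fell by 0.91 ± 0.17 (adjusted p = 0.0265). The brighter probe missed the threshold whichever array was left out, with an adjusted p from 0.0549 to 0.124, and stood at -0.48 with normexp background correction and the 75th percentile, still called. Csf1r, the receptor through which CSF1 and IL-34 keep macrophages alive, stood at 1.05 and 0.91 with vehicle and at 1.21 and 0.91 with GKA on its brightest probe (chromosome 18, 61290725 to 61290784). These ranges overlapped, and the difference was 0.079 ± 0.15, with a 95% interval from -0.30 to 0.45 (adjusted p = 0.736). In the fit over probes, the remaining pair gave 0.058 ± 0.21 (adjusted p = 0.868) and -0.095 ± 0.12 (adjusted p = 0.61). The interval of the brightest probe leaves out a change of the size seen for Emr1, at -0.79.

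**Figure D2:**
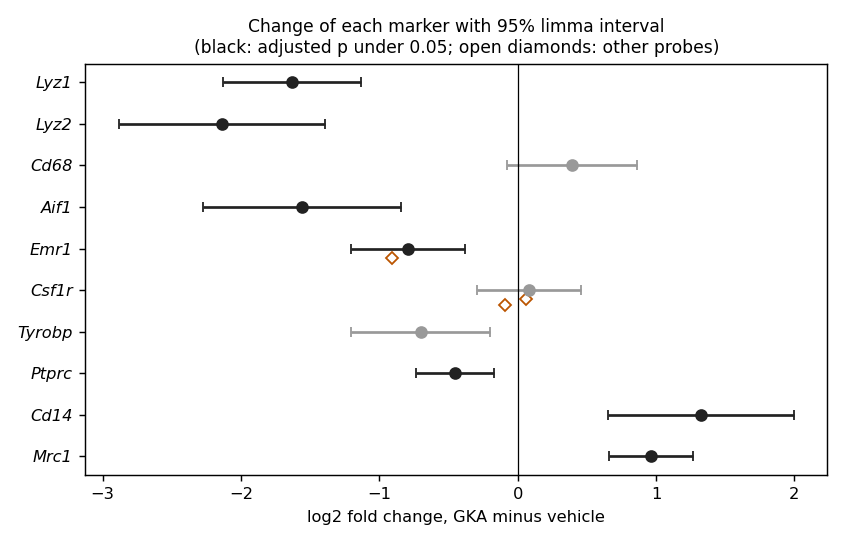
Log2 fold change of each marker, GKA minus vehicle (horizontal axis), with the 95% interval from limma; black marks an adjusted p under 0.05, grey the rest, and open diamonds are the other probes of Emr1 and Csf1r. Both Emr1 probes lie below 0, and the 3 Csf1r probes lie between -0.095 and 0.079.

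A ratio to Csf1r on the same array does not depend on how arrays were scaled. Relative to Csf1r, Emr1 stood at -3.31 and -3.04 with vehicle and at -4.01 and -4.09 with GKA, a difference of -0.87 on the log2 scale. Aif1 relative to Csf1r changed by -1.64, Lyz1 by -1.71 and Lyz2 by -2.22, each with no overlap between the groups, as in 55.8% of all genes set against Csf1r in the same way. Cd14 relative to Csf1r stood at -3.38 and -2.45 with vehicle and at -1.81 and -1.54 with GKA, higher by 1.24. No p is given for these ratios, since the smallest that an exact two-sided permutation test allows with 2 arrays a group is 0.333.

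Tyrobp and Ptprc, the broader leukocyte markers, lay lower with GKA by smaller amounts. Tyrobp encodes DAP12, an adaptor that couples surface receptors to the kinase SYK. Vehicle arrays read 0.20 and -0.24 and GKA arrays -0.56 and -0.89, with no overlap, and the difference of -0.70 ± 0.20 missed the threshold (adjusted p = 0.0685). It passed without scaling (adjusted p = 0.0107), with an intensity trend (0.0258) and with normexp and either the 75th percentile (0.0296) or quantile normalization (0.0486). Leaving out 1 array at a time, the change ran from -0.92 to -0.48. With spike-in scaling it was -1.24, where the fit gave every marker the same standard error of 0.27. The p-value of that fit does not reflect the spread of Tyrobp itself and is not given. Ptprc encodes CD45, the phosphatase on the surface of all white blood cells. It stood at -3.93 and -4.01 with vehicle and at -4.42 and -4.44 with GKA. Arrays of a group lay within 0.08 of each other, and the difference of -0.46 ± 0.11 was at the edge of the threshold (adjusted p = 0.0498). Its adjusted p lay between 0.0859 and 0.186 with each array left out in turn and was 0.148 with an intensity trend, and the change was 0.051 with normexp background correction and the 75th percentile.

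Cd14 and Mrc1, receptors for microbial molecules, rose. Cd14, which hands bacterial lipopolysaccharide to Toll-like receptor 4 (chromosome 18, 36884969 to 36885028), stood at -2.33 and -1.54 with vehicle and at -0.60 and -0.63 with GKA. The GKA arrays were nearly equal and both above the vehicle arrays, which lay 0.79 apart. Cd14 rose by 1.32 ± 0.27, or 2.5-fold (adjusted p = 0.0324). Leaving out GKA replicate 1 gave an adjusted p of 0.112, and leaving out GKA replicate 2 gave 0.117. Mrc1, the mannose receptor CD206 of tissue macrophages (chromosome 2, 14253273 to 14253332), stood at -5.87 and -5.71 with vehicle and at -4.82 and -4.84 with GKA, and rose by 0.96 ± 0.12 (adjusted p = 0.0122). Its vehicle readings were close to the limit of the arrays. The lowest value of any probe well above background was -5.91 and -5.96 on the vehicle arrays, and Mrc1 was well above background on only 1 of them. The difference was 0.17 with normexp and quantile normalization (adjusted p = 0.236 in limma). With spike-in scaling it was 0.42, and no p is given because that fit gave every marker the same standard error. Without GKA replicate 1 its adjusted p was 0.0611, and without GKA replicate 2 it was 0.0622.

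**Figure D3:**
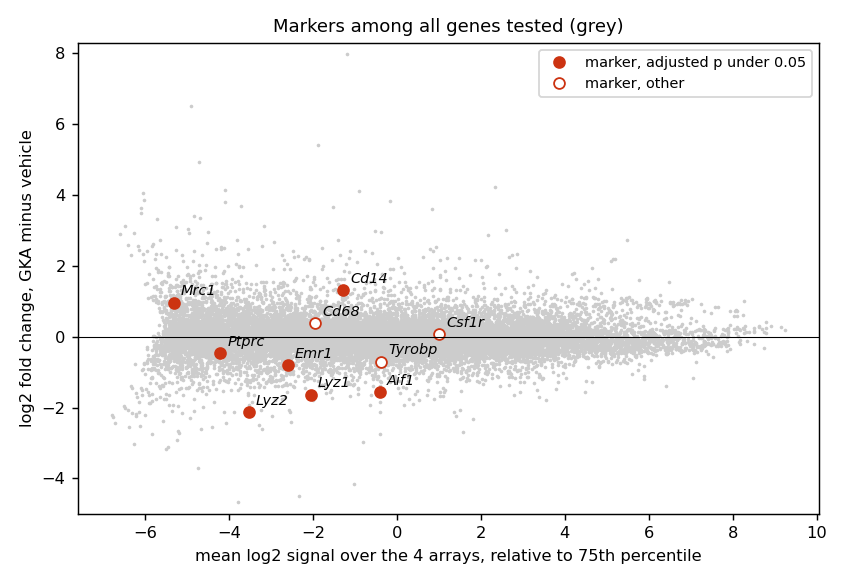
Mean log2 signal over the 4 arrays (horizontal axis) against the log2 fold change, GKA minus vehicle (vertical axis), for the 17178 genes tested (grey) and the 10 markers (red, filled where the adjusted p was under 0.05). The 5 filled markers below 0 are Lyz1, Lyz2, Aif1, Emr1 and Ptprc, and the 2 above 0 are Cd14 and Mrc1.

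Csf1r and Cd68 depended on the scaling for their direction. Without scaling between arrays the median of all genes lay at -0.40 and with E1A spike-in scaling at -0.56. These scalings shift all genes of an array alike, so the markers' median stayed 0.57 under that of all genes by construction (a difference of -0.57). With normexp background correction, which can change it, the difference was -0.28 with the 75th percentile and -0.34 with quantile normalization. Of all genes, 750 were called higher and 7654 lower without scaling, 435 and 7527 with spike-in scaling and 1381 and 1848 with median scaling, against 1565 and 1376 in the main values. The markers gave 2 higher and 6 lower without scaling, and 1 higher and 6 lower with spike-in scaling. The spike-in fit gave every marker the same standard error, 0.27, so its calls do not reflect each gene's own spread. In the authors' deposited table, which was not scaled between arrays, the ratio of GKA over control was 0.179 for Lyz2, 0.247 for Lyz1, 0.257 for Aif1, 1.01 for Cd68 and 1.85 for Cd14, where the median of all non-control probes was 0.841. With normexp in place of the scanner's own background subtraction and the 75th percentile, Lyz2 stood at -0.78, Lyz1 at -1.02 and Aif1 at -1.32, all still called, so the order of their falls depended on the background correction.

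**Figure D4:**
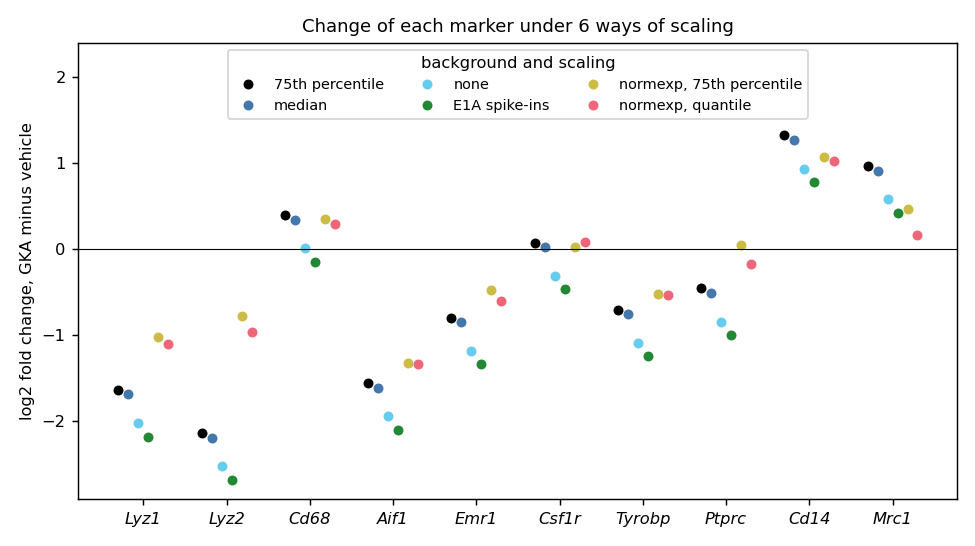
Log2 fold change of each marker, GKA minus vehicle (vertical axis), under 6 combinations of background correction and scaling (colours). Lyz1, Lyz2, Aif1, Emr1 and Tyrobp stay below 0 and Cd14 and Mrc1 above 0 in all 6, while Cd68, Csf1r and Ptprc cross 0 in at least 1.

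Clec7a, Cx3cr1 and Itgax were among the further macrophage genes that fell. Of 32 further macrophage and monocyte markers listed, 22 were tested, 5 fell, 0 rose and 17 did not pass in limma, and at an unadjusted p under 0.05 the counts were 12 lower and 3 higher. With normexp the calls were 9 lower and 3 higher with the 75th percentile, and 8 lower and 1 higher with quantile normalization. The 22.7% called lower compares with 8.01% of all genes, and the median of the list was -0.54. Clec7a, the beta-glucan receptor dectin-1, fell by 1.78 ± 0.32 (adjusted p = 0.0259). Cx3cr1, the fractalkine receptor of resident macrophages, fell by 1.57 ± 0.33 (adjusted p = 0.0342), and Itgax, which encodes the integrin CD11c, changed by -1.19 ± 0.19 (adjusted p = 0.0185). The summed signal of the list, in units of each array's 75th percentile, was 14.0 to 15.9 with vehicle and 9.88 to 11.4 with GKA. Neither group's range reached the other, as for 65.9% of single genes, and the brightest probes weigh most in such a sum.

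The signalling partners of DAP12 include kinases, adaptors and exchange factors. Of 14 tested genes of this list, 4 fell, 0 rose and 10 did not pass, or 7 lower and 0 higher at an unadjusted p under 0.05 in limma, and the median was -0.45. The share called lower was 28.6%, against 8.01% of all genes. With all 4 arrays required above background, 3 of 11 were called lower, against 9.67% of all genes. The exchange factor Vav1 fell by 1.07 ± 0.14 (adjusted p = 0.0131) and the adaptor Lat2 by 0.90 ± 0.17 (adjusted p = 0.0272), the last well above background on only 1 GKA array and at 0.01 with normexp and the 75th percentile. Of 11 genes of the CSF1 receptor's ligands, related receptors and myeloid transcription factors, 1 fell (9.09%, against 8.01% of all genes), 0 rose and 10 did not pass, with 2 lower and 0 higher at an unadjusted p under 0.05 in limma and a median of -0.18. That gene was Csf2ra, a receptor subunit for GM-CSF, at -0.58 ± 0.13 (adjusted p = 0.0431). Among 17 pan-leukocyte genes, the actin regulators Nckap1l (-0.63) and Hcls1 (-0.51) fell, the adaptor Cytip (1.34) rose, 14 did not pass and the median was -0.17. The share called in either direction was 17.6%, against 17.1% of all genes. Cytip missed the threshold with median scaling (adjusted p = 0.0528) and without scaling (0.0589).

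Of 16 tested genes of the pathway in which Cd14 works, 3 rose, 1 fell (6.25%, against 8.01% of all genes) and 12 did not pass, with a median of 0.09. The share called in either direction was 25%, against 17.1% of all genes. With all 4 arrays required above background, 2 of 14 were called higher and 1 lower, against 10.6% and 9.67% of all genes. Tlr4, the receptor that CD14 serves, rose by 0.60 ± 0.11 (adjusted p = 0.0259 in limma) and its adaptor Ticam1 by 0.59 ± 0.12 (adjusted p = 0.0298). Tlr6 rose by 1.01 ± 0.18 (adjusted p = 0.0255). Tlr6 was above background on only 1 vehicle array and entered the test only through the GKA arrays, where it read higher. The Tlr4 and Ticam1 calls depended on the scaling. Tlr4 stood at 0.22 (adjusted p = 0.164 in limma) without scaling and 0.061 with spike-in scaling, and Ticam1 at 0.21 (adjusted p = 0.167) and 0.051. The list then held 1 higher and 7 lower genes without scaling, and 0 higher and 7 lower with spike-in scaling. Ly86, a partner of the related receptor CD180, fell by 0.84 ± 0.18 (adjusted p = 0.0347). Of 9 genes of classically activated macrophages, 0 passed in limma, with 1 higher and 0 lower at an unadjusted p under 0.05. Their vehicle arrays differed more than the groups did: the median of vehicle replicate 2 minus replicate 1 was 1.04, while the median change with GKA was 0.46. Vehicle replicate 2 was also the higher vehicle array for Cd14, by 0.79. Without vehicle replicate 1 the rise of Cd14 was 0.93, and without vehicle replicate 2 it was 1.72. The source of the difference between the vehicle arrays was not tested. In the list of classical activation Cd40, a receptor of antigen-presenting cells, stood at 0.46 (adjusted p = 0.201 in limma) and Il6, a cytokine, at -0.02 (adjusted p = 0.987). Of 13 genes of alternatively activated macrophages besides Mrc1, 4 were tested and 0 passed in limma, with 0 at an unadjusted p under 0.05 in either direction, and the 2 with the highest signal, the lectin Mgl2 (0.15) and the arginase Arg1 (0.01), did not pass.

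**Figure D5:**
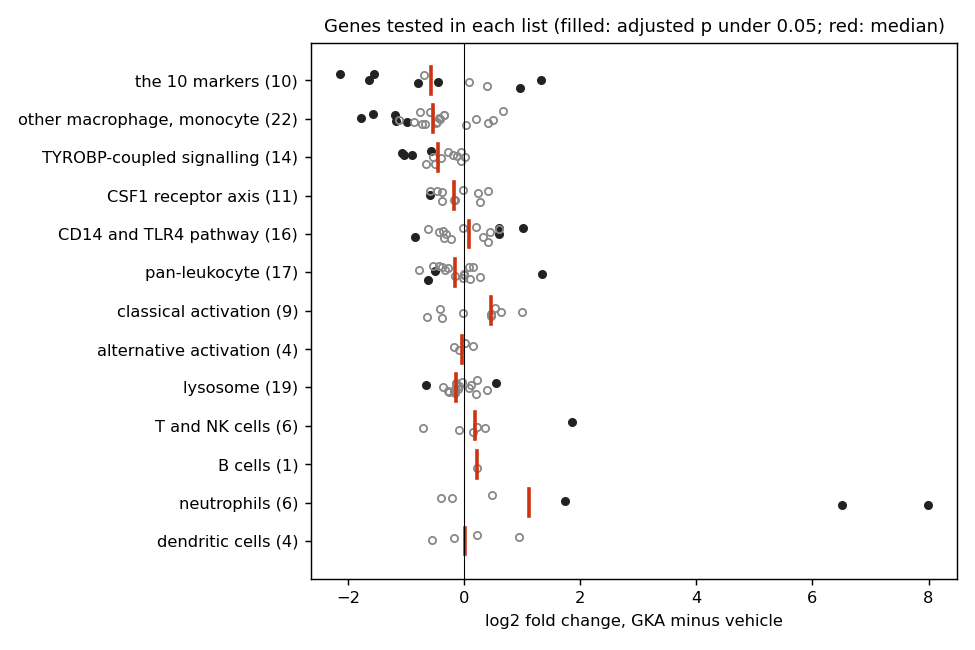
Log2 fold change, GKA minus vehicle (horizontal axis), of every tested gene of the marker and pathway lists (rows, with the number tested), filled where the adjusted p was under 0.05, with a red line at the median. The macrophage list and the DAP12 signalling list lie mostly below 0; S100a8 and Ltf among the neutrophil genes are drawn at measured values although neither vehicle array read them well above background.

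Few markers of lymphocytes could be measured, and 3 neutrophil genes rose. Of 9 B-cell markers 1 was tested (Cd22, 0.23, adjusted p = 0.235), the rest, Cd79a among them, not being well above background on both arrays of a group. Of 15 T and NK cell markers 6 were tested, 1 rose (Zap70, a kinase of the T-cell receptor, by 1.86 ± 0.25, adjusted p = 0.0138, above background on only 1 vehicle array) and 0 fell in limma, with 0 lower at an unadjusted p under 0.05. Their summed signal was 3.97 to 4.36 with vehicle and 4.52 to 5.15 with GKA. Of 15 neutrophil genes listed, 12 were on the array and 6 were tested. Of these 6, 3 rose, with S100a9 higher by 7.99 ± 0.31 (adjusted p = 0.0025 in limma), S100a8 at least 19.4-fold and Ltf at least 2.58-fold. The S100a9 vehicle readings, -5.17 and -5.18, were well above background but near the lowest such signal of those arrays, -5.91 and -5.96. S100a8 and Ltf had no reading well above background with vehicle. Their folds are therefore bounds, taken against the lowest measurable signal of each vehicle array or the probe's own reading, whichever was higher. In the same list, 0 fell in limma and 1 was lower at an unadjusted p under 0.05, and the receptor gene Csf3r stood at -0.21 (adjusted p = 0.333). Zap70, S100a8 and Ltf entered the test only through the GKA arrays, where they read higher. With all 4 arrays required above background, 2 of 4 neutrophil genes and 0 of 4 T and NK genes were called higher. The share called in the main fit was 50% and 16.7%, against 17.1% of all genes. Of 4 tested dendritic-cell genes 0 passed in limma, with 0 at an unadjusted p under 0.05, including the chemokine receptor Ccr7 (0.95, adjusted p = 0.168) and the transcription factor Zbtb46 (0.22, adjusted p = 0.379). Without the members, the leukocyte lists together held 97 tested genes, of which 13 fell (13.4%, against 8.01% of all genes) and 8 rose, with a median of -0.22. The summed signal of these 97 genes was 139 to 148 with vehicle and 137 to 140 with GKA, ranges that overlapped.

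The profile of Cd14 over the 4 arrays, centred on its mean, lay closest to those of Mc3r, Ero1l, Tnfrsf22, Lmx1b and Niacr1 among 16233 candidates, at Euclidean distances of 0.11 to 0.18. That of Csf1r lay closest to Krt18, Psmb6, Atp5g3, Elovl7 and Ksr2, at 0.03 in each case. A profile of 4 arrays leaves many near neighbours, and the distances are a description only.

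Between 59.7% and 63.5% of probes were well above background, 0 spots were saturated and the 75th percentile of the intensity was 751 and 755 with vehicle and 557 and 598 with GKA. All 4 arrays shared 1 slide and 1 scan, with vehicle at positions 1 and 2 and GKA at positions 3 and 4, so slide position and treatment cannot be told apart. No spot of the 13 marker probes was marked as an outlier.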

How the data were processed

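The members and gene lists were chosen with earlier results of these data known. Spot intensities had been background-subtracted and detrended with Agilent Feature Extraction by the authors, version 10.7.3.1 per the file headers (9.1 per the submitters' processing notes), and were not scaled between arrays. The authors' deposited table gave gene names, probe positions on mm9 and 1 ratio of GKA over control per probe. Control spots and marked outlier spots were dropped, spots of a probe were averaged as log2 values, and the 75th percentile of each array was subtracted. A probe was kept if both arrays of either group read it well above background, and a gene was read by its brightest kept probe. GKA and vehicle were compared with lmFit and eBayes of limma 3.58.1 in R 4.3.3, two-sided, with Benjamini-Hochberg adjustment and a threshold of 0.05. The fit had 2 residual and 3.33 prior degrees of freedom. In simulated data with 200 of 17178 genes changed, it called 37.65% of the 2-fold and 93.05% of the 4-fold changes. Of the simulated calls, 5.01% were false, and these shares hold for that number of changed genes. A gene that did not pass is thus not shown to be unchanged.

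All members were named; from each other list, up to 3 called genes per direction with the largest change, or else the 2 brightest, and the 5 profiles nearest to Csf1r and to Cd14. A few genes that this rule names are not reported here. Csf3r is named besides these, chosen after its value was seen. Alternatives were median, spike-in or no scaling, normexp (offset 50) on the median spot and background signals, in place of the mean signal first planned, other probe filters, averaged probes, an intensity trend, a replicate block and leaving out each array. Entrez numbers matched all 10 members to a symbol in RefSeq's GRCm38.p6 gene table. Probe and protein sequences were not used here.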

Additional observations from a re-analysis of the deposited data

How the results depend on the processing

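The number of arrays is the main limit: each group has 2, and a dim gene such as Mrc1 lies near the lowest measurable signal. Leaving out 1 array at a time, the markers gave 2 to 4 lower and 0 to 2 higher, all genes 206 to 1312 lower and 315 to 1523 higher, and the other leukocyte genes 0 to 15 lower and 2 to 13 higher (16 lower at an unadjusted p under 0.05 in limma where the count was 0). Of the 29 called list genes named, 3 (S100a8, S100a9 and Spp1) passed without each array in turn and 26 missed the threshold without at least 1. Csf1r ran from -0.071 to 0.23, Il6 from -1.04 to 1.00 and Arg1 from -0.24 to 0.26.

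Without scaling, all genes gave 7654 lower and 750 higher and other leukocyte genes 54 and 5; with spike-in scaling these were 7527 and 435, and 57 and 5, and 1 marker was higher. With normexp and the 75th percentile 2990 genes were higher, with 20 and 15 other leukocyte genes lower and higher, and with normexp and quantile normalization 1 marker was higher. Without the filter on dim probes no marker passed, a count of 0 in each direction in limma (6 lower and 2 higher at an unadjusted p under 0.05), against 67 lower and 156 higher of all genes, and 0 lower (22 unadjusted) and 2 higher of the other leukocyte genes. With all 4 arrays required above background, 1 marker was higher, since Mrc1 and Lyz2 were not tested. The intensity trend gave 2094 lower genes. The cause of these shifts was not tested, apart from the changed set of genes.

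Values that changed sign without scaling were Csf1r (-0.31), Mgl2 (-0.23), Arg1 (-0.37), Cd22 (-0.16) and Zbtb46 (-0.17), and with spike-in scaling Csf1r (-0.46), Cd68 (-0.15), Cd40 (-0.078), Mgl2 (-0.39), Arg1 (-0.53), Lgmn (-0.0017), Cd22 (-0.32) and Zbtb46 (-0.33). Arg1 stood at -0.038 with median scaling and -0.020 with normexp and the 75th percentile, where Ptprc stood at 0.051 and Lat2 at 0.010.

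With the replicate number as a block, all genes gave 902 lower and 1014 higher and the other leukocyte genes 5 higher. The 4 lower markers were within 1.5 times the main count, with adjusted p-values in limma of 0.0627 for Emr1, 0.0720 for Ptprc and 0.0426 for Tyrobp. Deviations of same-numbered arrays correlated with r = 0.08 across genes, and nothing in the labels says that a number marks a shared source.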

Other observations

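Of 6 hormone genes, Sst, the somatostatin gene, rose by 0.83 ± 0.13 (adjusted p = 0.0198 in limma), 0 fell (0 at an unadjusted p under 0.05) and 5 did not pass. Sst stood at 0.45 without scaling and 0.29 with spike-in scaling. The summed signal of the 6 genes in units of the 75th percentile was 2014 and 2026 with vehicle and 2534 and 2434 with GKA. Of 10 endothelial markers, Cdh5, the VE-cadherin gene, rose by 0.63 ± 0.14 (adjusted p = 0.0404) and Emcn, a sialomucin of capillaries and veins, fell by 0.76 ± 0.14 (adjusted p = 0.0251), with a median of -0.03. Cdh5 missed the threshold when each array was left out in turn, with median scaling (adjusted p = 0.0549 in limma) and without scaling (0.25, adjusted p = 0.246). With spike-in scaling Cdh5 stood at 0.089. Of 6 tested fibroblast and stellate cell markers, Col1a2, a chain of type I collagen, fell by 0.87 ± 0.13 (adjusted p = 0.0177), 0 rose (0 at an unadjusted p under 0.05) and 5 did not pass. The share called was 16.7% of the hormone genes, 20% of the endothelial and 16.7% of the stellate markers, against 17.1% of all genes.

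Among 6 tested acinar genes, the ribonuclease Rnase1 fell by 0.69 ± 0.15 (adjusted p = 0.0372). Among 7 duct genes, Spp1, which encodes osteopontin, rose by 2.26 ± 0.29 (adjusted p = 0.013), and the claudin Cldn4 (-0.81 ± 0.15, adjusted p = 0.0267) and the keratin Krt7 (-0.79 ± 0.14, adjusted p = 0.0257) fell. All of these values are for 2 arrays per group.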
